A study of Homo sapiens with 8 samples.

Results

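The 9 genes described here encode enzymes that remove methyl groups from lysine 9 of histone H3 (H3K9), or close relatives of such enzymes, and they were chosen by name. They were KDM1A, KDM3A, KDM3B, JMJD1C, KDM4A, KDM4B, KDM4C, PHF8 and PHF2. Each symbol stood on 1 identifier, so the 9 genes were 9 of 60234 rows of the deposited table, and all 9 were among the 15092 genes tested, whose mean reached 1 CPM (reads of a gene scaled to a fixed library total). The samples were 8 RNA libraries of the human Rh41 line, which is established from an alveolar rhabdomyosarcoma (a childhood soft-tissue tumour that resembles developing muscle) and is positive for the PAX3-FOXO1 gene fusion. In 4 libraries the knockdown field reads control, with the control reagent not described further, and in the other 4 it reads siG9a, the knockdown of G9a. The series title writes shG9a where the sample labels write siG9a, so the kind of knockdown reagent is uncertain, and all 8 libraries come from 1 cell line. The comparison of siG9a with control addresses which transcripts differ when G9a is reduced.

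Methylation of H3K9 marks silent chromatin. G9a, encoded by EHMT2, writes the mono- and dimethyl forms in gene-rich chromatin, and demethylases take them off again. KDM1A (LSD1) is a flavin-dependent amine oxidase that works in the CoREST corepressor complex and removes mono- and dimethyl groups. The other 8 genes encode JmjC-domain proteins, a family of dioxygenases that use iron, oxygen and 2-oxoglutarate. KDM3A and KDM3B act on mono- and dimethyl H3K9, which makes them direct opponents of G9a, whereas the KDM4 enzymes act mainly on trimethyl H3K9. PHF8 and PHF2 read methylated H3 lysine 4 through a PHD finger and remove dimethyl or monomethyl H3K9 near active promoters.

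Of the 9 genes, PHF8 was the one whose 4 siG9a libraries all lay above its 4 control libraries. Its mean level was 11.1 ± 1.83 (control) and 24.4 ± 5.74 CPM (siG9a; SD, n = 4 each). KDM3A, KDM1A and KDM4C were also higher in siG9a in 4 of 4 pairs of libraries with the same replicate number (as were 14.9% of all genes tested), and JMJD1C and KDM4B were lower in 4 of 4 (15.3%), but none of these 5 passed the adjusted threshold. The test was limma on log2(CPM + 1) over all 15092 genes with the Benjamini-Hochberg method, run with the group alone (unblocked) and with the replicate number as a block (blocked). Without the block it called 0 of the 9 genes and 0 of all genes (0.0%), with 1 of the 9 genes and 1880 of all genes (12.5%) at an unadjusted p under 0.05. With the block it called 1 of the 9, PHF8, beside 1717 of all genes (11.4%), so the share called among the 9 was close to the background. Calls in the direction of PHF8, higher in siG9a, made up 4.86% of all genes. Without the libraries numbered 3, limma called 0 of the 9 in either fit, beside 7.14% of all genes blocked and 2.74% unblocked. On reads recovered from the CPM, edgeR without the block called 0 of all genes and DESeq2 called 291 (2.28% of those with an adjusted p), and neither called any of the 9. With the block, edgeR (11.3% of all genes) and DESeq2 (10.2% of the 9532 genes with an adjusted p) each called PHF8. Neither called another of the 9, and DESeq2 with the block gave no adjusted p for KDM4C.

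**Figure D1:**
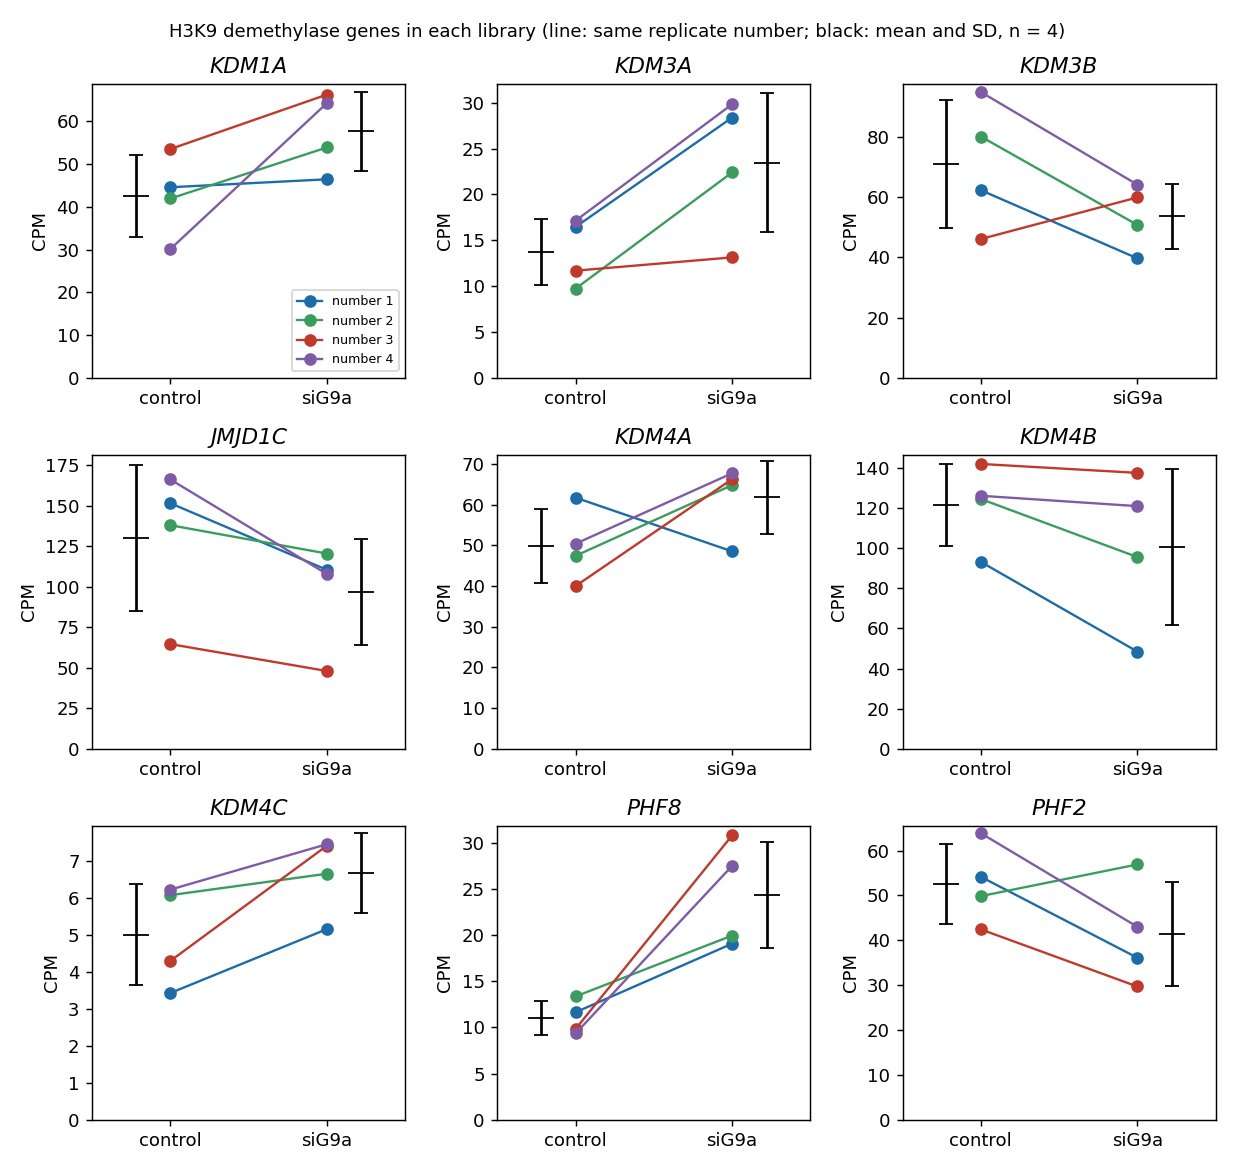
CPM of each of the 9 H3K9 demethylase genes (vertical axes from 0, scaled per gene) in 4 control and 4 siG9a libraries. Points are libraries, lines join libraries with the same replicate number, and black bars give the mean and SD. PHF8 runs from 9.35 to 13.4 CPM in control and from 19.1 to 30.8 CPM in siG9a, and the other 8 genes overlap between the groups.

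The libraries were shallow, at 1458825 to 1938665 reads assigned to genes, so 1 read was worth 0.516 to 0.685 CPM. EHMT2 measured 57.6, 68.1, 87.3 and 88.3 CPM in control replicates 1 to 4 and 19.6, 35.1, 33.1 and 58.5 CPM in siG9a. It was lower in 4 of 4 pairs (15.3% of all genes tested), at 0.340, 0.516, 0.379 and 0.663 of control. The groups overlapped, since siG9a replicate 4 lay above control replicate 1. Both libraries numbered 3 stood apart from the rest. Their summed level of 13 muscle and alveolar rhabdomyosarcoma markers was 440 CPM in control and 321 CPM in siG9a, where the other libraries held 2546 to 2966 CPM in control and 1162 to 1770 CPM in siG9a. MYF5 was at 0 in all 8 libraries, and MYF6, CHRNG and TNNT3 were at 0 in some. The summed level of 14 genes listed as markers of embryonal kidney lines was 10290 CPM and 9214 CPM in the libraries numbered 3. The other 6 were not alike in this sum. It was 391 CPM in control and 311 CPM in siG9a at number 1, and 2092 to 3071 CPM at numbers 2 and 4. NEFH or EPCAM was at 0 in each of the 8 libraries. The summed level of 10 fibroblast and stromal markers was 143 and 67.9 CPM in the libraries numbered 3. It was 180.4 to 447 CPM in the other 6, with POSTN at 0 in all 8. Because of these 2 libraries, the change of each of the 9 genes is also given without number 3. The muscle marker sum was also lower in siG9a than in control within each number. Of the 9 markers tested, 7 were called lower by limma with the block, with a median log2 change of −1.07 that was −1.34 without number 3, so leaving out number 3 does not remove this difference. Mitochondrial transcripts (37 genes) took 9.18% of control and 13.7% of siG9a reads at number 1, 5.58% and 11.4% at number 2, 4.68% and 6.53% at number 3, and 4.59% and 5.21% at number 4, and so were higher in siG9a in 4 of 4 pairs. The part of these differences in the results was not tested. In such bulk RNA, fewer cells of a type and less RNA per cell cannot be told apart.

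PHF8, a JmjC demethylase mutated in an X-linked intellectual disability syndrome, measured 11.7, 13.4, 9.84 and 9.35 CPM in control replicates 1 to 4 and 19.1, 19.97, 30.8 and 27.5 CPM in siG9a. The groups did not overlap, which held in the same direction for 3.88% of all genes tested. These values rested on 16 to 22 reads per control library and 33 to 54 reads per siG9a library. The counting error of single libraries was therefore wide, and the 95% Wilson interval of control replicate 2 (8.83 to 20.2 CPM) overlapped that of siG9a replicate 1 (13.8 to 26.3 CPM). The siG9a value was 1.64, 1.49, 3.13 and 2.94 times the control value in pairs 1 to 4, so pairs 3 and 4 showed about the same larger ratio and pairs 1 and 2 the smaller one. The mitochondrial share and the muscle marker sum also differed between the groups in each of these pairs, and their part in the PHF8 result was not tested.

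The log2 change of PHF8 was 1.06, with limma adjusted p = 0.178 (SE 0.28, unblocked) and 0.0122 (SE 0.27, blocked; 95% interval 0.50 to 1.62). An exact two-sided permutation test of the 8 values gave p = 0.0286, the smallest that 4 against 4 libraries allow. Any gene whose groups do not overlap receives this p, so it restates the non-overlap and adds no further evidence. With the block, the adjusted p was 0.00771 by edgeR and 0.0419 by DESeq2. Without both libraries numbered 3, the mean was 11.5 ± 2.02 (control) and 22.2 ± 4.64 CPM (siG9a; SD, n = 3 each). The log2 change was then 0.89, with limma adjusted p = 0.0970 (blocked), so the call was lost. It was also lost without pair 4 (adjusted p = 0.0634 by limma with the block), and kept without pair 1 (0.0199) and without pair 2 (0.0307).

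The promoters of PHF8, JMJD1C and KDM4B are shown because PHF8 was the called member and the other pair are the most abundant members. Each is the 250 bases before a start site in RefSeq (GRCh38.p14) in a window free of annotated exons. PHF8 lies on the minus strand (chrX:54044474-54044723), JMJD1C on the minus strand (chr10:63521891-63522140) and KDM4B on the plus strand (chr19:4968863-4969112). PHF8 and JMJD1C each have 3 start sites in that table, and reads from transcript ends do not show which was used. Capitals mark the core of the hypoxia response element (ACGTG or GCGTG, either strand, so that CACGTG counts as 2 matches) and the cAMP response element (TGACGTCA, searched after the sequence had been read).
PHF8: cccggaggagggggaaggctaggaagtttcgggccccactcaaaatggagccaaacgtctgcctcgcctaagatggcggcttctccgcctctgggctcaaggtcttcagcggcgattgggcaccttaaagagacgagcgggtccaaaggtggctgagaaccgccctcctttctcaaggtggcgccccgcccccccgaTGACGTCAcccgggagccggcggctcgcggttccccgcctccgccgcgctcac
JMJD1C: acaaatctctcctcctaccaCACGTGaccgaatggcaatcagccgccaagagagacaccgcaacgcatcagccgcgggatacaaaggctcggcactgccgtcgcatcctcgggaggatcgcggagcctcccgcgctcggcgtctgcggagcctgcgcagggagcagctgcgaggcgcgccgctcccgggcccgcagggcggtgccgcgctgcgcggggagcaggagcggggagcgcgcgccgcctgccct
KDM4B: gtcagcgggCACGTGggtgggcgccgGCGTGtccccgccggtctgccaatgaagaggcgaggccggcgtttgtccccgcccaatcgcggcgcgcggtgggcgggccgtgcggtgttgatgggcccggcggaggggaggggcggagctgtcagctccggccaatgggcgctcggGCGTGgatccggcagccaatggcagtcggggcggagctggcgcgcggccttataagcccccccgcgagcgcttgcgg
The PHF8 window held 1 cAMP element and no hypoxia core. A cAMP element is held by 1.65% of 35116 promoter windows of the same length. Because this motif was picked after reading the PHF8 sequence, that share does not measure how unusual the match is. The JMJD1C window held 2 matches to the hypoxia core and the KDM4B window 4, and 43.2% of all windows hold at least 1. All of these windows were rich in CpG, with 24 CpG in PHF8, 35 in JMJD1C and 36 in KDM4B, against a median of 11 over all windows. The other 2 PHF8 windows, which overlap annotated exons, held 1 and 6 CpG and neither motif, and the other 2 JMJD1C windows, which also overlap exons, held 5 and 34 CpG and neither motif. These are matches of letters and show no binding.

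PHF2, the relative of PHF8 whose activity depends on a partner protein, was not called. It measured 54.2, 49.8, 42.4 and 63.9 CPM in control and 36.1, 56.9, 29.7 and 43.01 CPM in siG9a. The siG9a value was lower in pairs 1, 3 and 4 and higher in pair 2, and the groups overlapped. The mean was 52.6 ± 8.95 (control) and 41.4 ± 11.7 CPM (siG9a; SD, n = 4 each). Its log2 change was −0.36, with a 95% interval of −0.76 to 0.04 and limma adjusted p = 0.248 (blocked) and 0.603 (unblocked). Without number 3 it was −0.31, with adjusted p = 0.462 (blocked). As a result, the ratio of PHF8 to PHF2 within a library was 0.215, 0.268, 0.232 and 0.146 in control and 0.529, 0.351, 1.04 and 0.640 in siG9a. Control libraries thus held several times more PHF2 than PHF8, and siG9a replicate 3 held about equal amounts. This ratio was chosen after the values of both genes had been seen and is given as a description.

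KDM3A, a demethylase induced by hypoxia and active in germ cell and metabolic gene control, measured 16.5, 9.72, 11.7 and 17.1 CPM in control. In siG9a it measured 28.4, 22.4, 13.1 and 29.8 CPM. It was higher in siG9a in 4 of 4 pairs, which held for 14.9% of all genes tested, by ratios of 1.72, 2.30, 1.12 and 1.74. The siG9a library numbered 3 lay inside the control range. Without number 3 the groups did not overlap, which held in the same direction for 10.5% of all genes tested. The means over all libraries were 13.7 ± 3.62 and 23.4 ± 7.58 CPM (SD, n = 4 each). The log2 change was 0.70 ± 0.26 (SE, blocked), with limma adjusted p = 0.0828 (blocked) and 0.412 (unblocked). Its 95% interval was 0.16 to 1.23 (blocked) and −0.02 to 1.42 (unblocked). Without number 3 the log2 change was 0.88 and the blocked adjusted p 0.0694.

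JMJD1C, which is related to KDM3A by sequence but whose own H3K9 activity is disputed, measured 151.5, 137.9, 64.6 and 166.2 CPM in control. It measured 110.4, 120.5, 47.96 and 107.8 CPM in siG9a. The library numbered 3 was the lowest in both groups, and the groups overlapped through the control library of that number. Without number 3 the means were 151.9 ± 14.1 (control) and 112.9 ± 6.67 CPM (siG9a; SD, n = 3 each). The groups then did not overlap, as was the case in the same direction for 11.5% of all genes tested. JMJD1C was lower in siG9a in 4 of 4 pairs (15.3% of all genes tested), at 0.729, 0.873, 0.743 and 0.649 of the control value. The log2 change was −0.42 ± 0.16 (SE, blocked), with limma adjusted p = 0.0797 (blocked) and 0.678 (unblocked). Its 95% interval was −0.74 to −0.10 (blocked) and −1.18 to 0.34 (unblocked). Without number 3 the log2 change was again −0.42, with adjusted p = 0.185 (blocked). JMJD1C-AS1, an antisense gene whose exons overlap JMJD1C, measured at most 9.68 CPM.

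KDM3B, the closest relative of KDM3A in this family, measured 62.4, 80.2, 46.1 and 95.02 CPM in control and 39.7, 50.8, 59.95 and 64.2 CPM in siG9a. In the pair numbered 3 the siG9a library was the higher one, and in the other 3 pairs it was the lower one, at 0.637, 0.634 and 0.676 of control. The log2 change was −0.37, with a 95% interval of −0.76 to 0.03 and limma adjusted p = 0.230 (blocked). Without number 3 it was −0.61 and the blocked adjusted p 0.0747. The ratio of KDM3A to JMJD1C ran from 0.0705 to 0.181 in control and from 0.186 to 0.277 in siG9a, and that of KDM3A to KDM3B from 0.121 to 0.264 and from 0.219 to 0.714, where the groups overlapped. KDM3A was thus the least abundant of this group of 3 genes in every library. Of 4 such ratios computed, all chosen after the values had been seen, those of PHF8 to PHF2 and of KDM3A to JMJD1C did not overlap between the groups, and that of KDM4A to KDM4B (0.281 to 0.662 in control, 0.481 to 1.0 in siG9a) did.

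**Figure D2:**
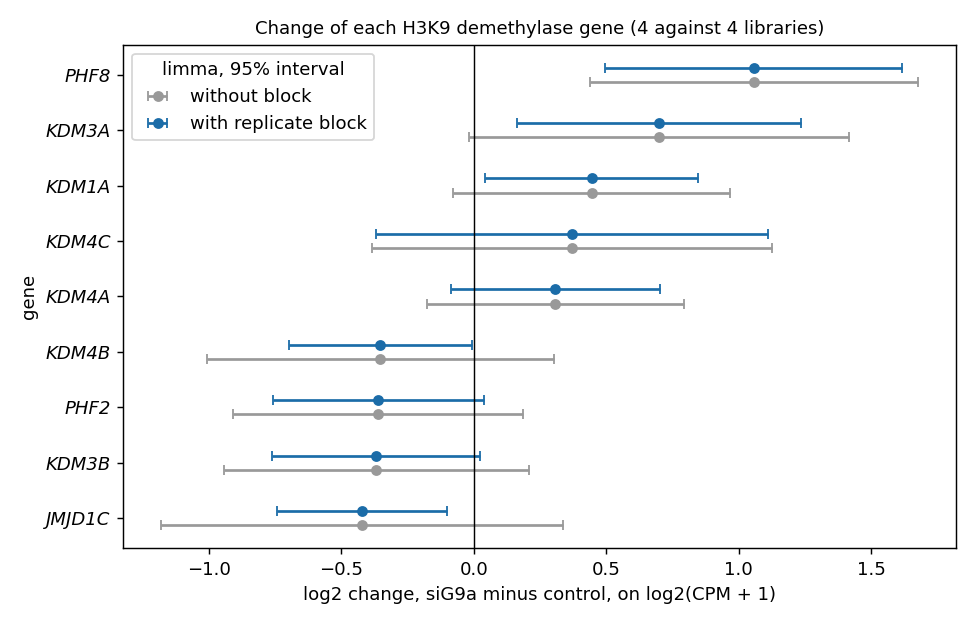
Log2 change (siG9a minus control, on log2(CPM + 1), horizontal axis) of the 9 genes with 95% intervals from limma without the block (grey) and with it (blue), 4 against 4 libraries. The intervals are for single genes and not adjusted. PHF8 at 1.06 is farthest from 0 and JMJD1C at −0.42 is the lowest.

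KDM1A, the flavin enzyme, measured 44.6, 41.9, 53.5 and 30.1 CPM in control and 46.4, 53.9, 66.2 and 64.2 CPM in siG9a. It was higher in siG9a in 4 of 4 pairs, but by very unequal ratios of 1.04, 1.28, 1.24 and 2.13. The groups overlapped through control replicate 3. Without number 3 they did not overlap, which held in the same direction for 10.5% of all genes tested. The mean was 42.5 ± 9.64 (control) and 57.7 ± 9.26 CPM (siG9a; SD, n = 4 each). Its log2 change was 0.45 ± 0.19 (SE, blocked), with limma adjusted p = 0.147 (blocked) and 0.484 (unblocked). The 95% interval was 0.04 to 0.85 (blocked) and −0.08 to 0.97 (unblocked). Without number 3 the log2 change was 0.49 and the blocked adjusted p 0.237.

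The KDM4 genes, which encode trimethyl-lysine demethylases with tandem Tudor domains, had log2 changes of both signs, none of which passed the test. KDM4A measured 61.7, 47.4, 39.97 and 50.4 CPM in control and 48.5, 64.8, 66.2 and 67.7 CPM in siG9a. The siG9a library numbered 1 was the exception, since it lay below its control and the other 3 lay above every control library. The log2 change was 0.31, with a 95% interval of −0.09 to 0.70 and limma adjusted p = 0.332 (blocked). Without number 3 it was 0.17, with adjusted p = 0.710 (blocked). KDM4A-AS1, an antisense gene with overlapping exons, measured at most 8.6 CPM. AL451062.3, a gene on the same strand with exons that overlap KDM4A, has no value among the deposited CPM. The labels do not say if reads were counted by strand.

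KDM4B, known to be induced by hypoxia and by nuclear receptors, measured 93.2, 124.6, 142.1 and 126.2 CPM in control and 48.5, 95.6, 137.6 and 121.01 CPM in siG9a. It was lower in siG9a in 4 of 4 pairs, at 0.520 and 0.768 of control in pairs 1 and 2 and at 0.969 and 0.959 in pairs 3 and 4. The difference was thus larger in pairs 1 and 2. The log2 change was −0.35, with a 95% interval of −0.70 to −0.01 and limma adjusted p = 0.187 (blocked). Without the block the interval was −1.01 to 0.30 and the limma adjusted p 0.689. The log2 change was −0.46 without number 3, with a blocked adjusted p of 0.197. It was −0.04 in the fit without the block that left out siG9a replicate 1.

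KDM4C, the scarcest of the 9 genes, measured 3.43, 6.08, 4.3 and 6.23 CPM in control and 5.16, 6.66, 7.42 and 7.46 CPM in siG9a. These values are 5 to 13 reads per library. The siG9a value was higher in 4 of 4 pairs, but the log2 change of 0.37 had a 95% interval of −0.37 to 1.11 and limma adjusted p = 0.567 (blocked). Without number 3 the log2 change was 0.27, with an adjusted p of 0.762. For the 8 genes other than PHF8, the exact two-sided permutation p ran from 0.0571 for KDM1A to 0.371 for KDM4B, where 0.0286 is the smallest possible, and these p-values were computed for 9 genes and not adjusted.

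Because reads come from transcript ends, CPM can be compared between genes without a length correction, apart from differences in priming. In control the order of mean CPM was JMJD1C (130.04), KDM4B (121.5), KDM3B (70.9), PHF2 (52.6), KDM4A (49.9), KDM1A (42.5), KDM3A (13.7), PHF8 (11.1) and KDM4C (5.01). The ranges of neighbours in this order overlapped, except between KDM1A and KDM3A and between PHF8 and KDM4C. In siG9a the order was KDM4B (100.7), JMJD1C (96.7), KDM4A (61.8), KDM1A (57.7), KDM3B (53.7), PHF2 (41.4), PHF8 (24.4), KDM3A (23.4) and KDM4C (6.68), and KDM3A and KDM4C were the only neighbours whose ranges did not overlap. In both groups, JMJD1C and KDM4B were the most abundant pair and KDM4C the least abundant gene.

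The summed level of the 9 genes did not part the groups. It was 499, 511, 414 and 564 CPM in control and 382, 491, 459 and 533 CPM in siG9a, with means of 497 ± 62.1 and 466 ± 63.7 CPM (SD, n = 4 each), and was higher in siG9a in 1 of 4 pairs. Within this sum the share of PHF8 was 2.25 ± 0.412% in control and 5.24 ± 1.10% in siG9a (SD, n = 4 each), without overlap. The shares of KDM4A (8.92% to 12.4% in control, 12.7% to 14.4% in siG9a) and KDM4C (0.687% to 1.19% and 1.35% to 1.62%) did not overlap either, and those of the other 6 genes did. Shares of 1 sum depend on each other, so these are descriptions. The share of JMJD1C was 15.6% in control replicate 3 and 10.4% in siG9a replicate 3, where the other libraries held 20.2% to 30.4%. KDM4B took the largest share in both of these libraries, 34.3% in control and 29.98% in siG9a.

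**Figure D3:**
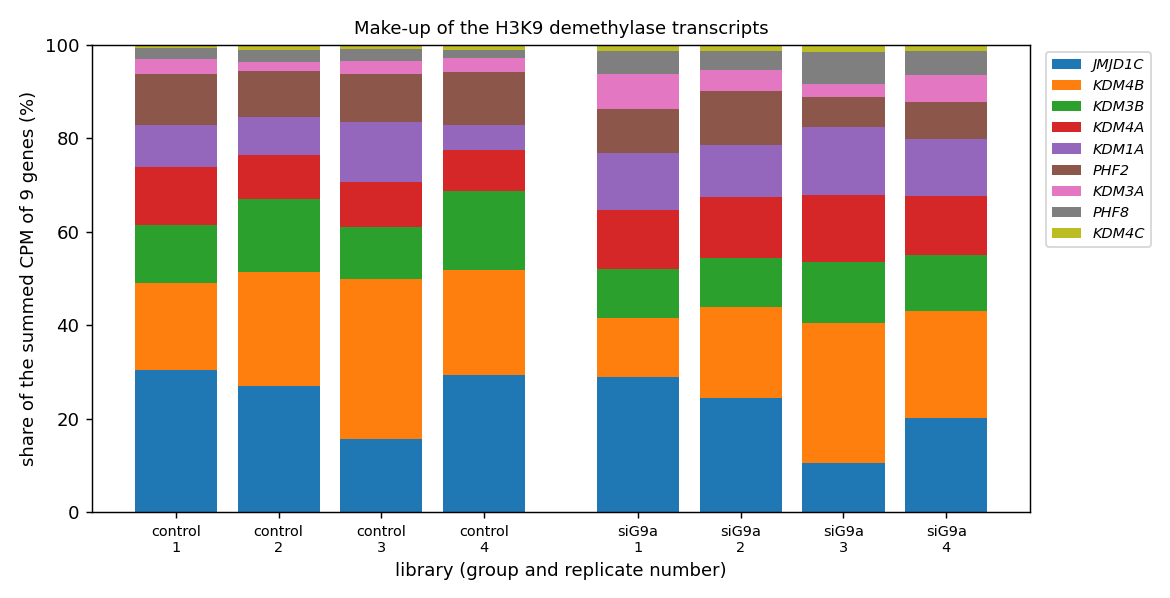
Share (%) of each of the 9 genes in their summed CPM, 1 bar per library, with genes stacked from the most to the least abundant on average. The grey PHF8 segment is wider in every siG9a library, and the blue JMJD1C segment is narrowest in the libraries numbered 3 (15.6% and 10.4%).

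Genes that act with or against these enzymes were taken from lists written with earlier results of these data known, and are given by counts. For every count below, the background with the block is 11.4% of all genes called, and 7.14% without number 3. The 9 demethylases had a median log2 change of 0.31 (0.17 without number 3), with 5 above 0 and 4 below, where all 15092 genes had a median of 0.01. The median size of the change, regardless of sign, was 0.37 in log2, against 0.33 over all genes. Of 4 tested genes listed as further H3K9 demethylases or related JmjC hydroxylases (KDM1B, KDM7A, RIOX1 and RIOX2), limma with the block called 0 (1 of 4 lower in 4 of 4 pairs), with 0 at an unadjusted p under 0.05 without the block. Their largest changes were −0.76 for KDM7A, from 4.54 to 2.43 CPM, and −0.37 for RIOX2, from 41.5 to 31.4 CPM, with blocked limma adjusted p-values of 0.280 and 0.261. KDM4D measured at most 2.29 CPM and KDM4E was listed at 0 in every library. Among 8 tested H3K9 methyltransferase genes, the block fit called EHMT2, the knocked-down gene, with a log2 change of −1.10 and a limma adjusted p of 0.000472 (0.191 unblocked). Among 11 other JmjC enzymes, which act on other lysines or as hydroxylases, it called KDM5A, a demethylase of H3 lysine 4. KDM5A was higher in siG9a, from 240.5 ± 41.97 to 324 ± 35.4 CPM (SD, n = 4 each), with a log2 change of 0.44 and limma adjusted p = 0.0427 (blocked), 0.125 without number 3 and 0.385 without the block. With the block, neither edgeR (adjusted p = 0.0557) nor DESeq2 (0.0722) called KDM5A, and limma did not without pair 1 (0.156) or pair 2 (0.240). The groups did not overlap, with siG9a higher, in 2 of these 11 JmjC genes and in 1 of the 8 methyltransferase genes. The same held for 3.88% of all genes tested. Non-overlap with siG9a lower was seen for 0 genes of either list.

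KDM1A works in the CoREST complex with RCOR proteins and the deacetylases HDAC1 and HDAC2, and is brought to DNA by repressors such as ZEB1. Of 20 tested genes of this complex and its partners, 3 were called with the block (15.0%, 1 higher and 2 lower), and RCOR1, RCOR2, RCOR3, HDAC1 and HDAC2 were not among them. The ZEB1 level was 203.4 ± 73.96 (control) and 62.7 ± 29.3 CPM (siG9a; SD, n = 4 each), a log2 change of −1.69 with limma adjusted p = 4.84e-06 (blocked) and 0.114 (unblocked). CTBP2, a corepressor that binds ZEB proteins, was lower, from 268.9 to 156.3 CPM, and GSE1, a subunit found with CoREST, was higher, from 41.8 to 82.2 CPM. On the log2 scale these differences were −0.73 and 0.98, at blocked limma adjusted p-values of 0.00246 and 0.000665 (unblocked 0.244 and 0.247). All 3 kept an adjusted p under 0.05 with the block when number 3 was left out. ZEB1, CTBP2, GSE1 and KDM5A have exons that overlap genes on the opposite strand, which leaves their values uncertain unless reads were counted by strand. On average, GINS2 opposite GSE1 measured 38.2 CPM and ZRANB1 opposite CTBP2 49.5 CPM. CCDC77 opposite KDM5A measured 18.4 CPM and ZEB1-AS1 opposite ZEB1 3.66 CPM. EHMT2 and RIOX2 also overlap genes on the opposite strand, EHMT2-AS1 and CRYBG3, which measured 0.0 and 2.65 CPM on average.

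JmjC enzymes consume 2-oxoglutarate and are inhibited by succinate and fumarate. Of 23 tested genes for enzymes that make or use these metabolites, 4 were called with the block (17.4%, against 11.4% of all genes), 1 higher and 3 lower, and 2 of the 4 without number 3 (where 7.14% of all genes were called). SDHC, a subunit of succinate dehydrogenase, was higher, from 15.97 ± 7.55 to 37.4 ± 5.52 CPM, and IDH3A, a subunit of the enzyme that makes 2-oxoglutarate in mitochondria, was lower, from 42.2 ± 6.11 to 21.7 ± 4.03 CPM (SD, n = 4 each). Their limma adjusted p-values were 0.000961 and 0.00550 (blocked) and 0.162 and 0.163 (unblocked). GLUD1 and GOT2, which make 2-oxoglutarate from glutamate, had log2 changes of −0.75 and −0.48, with blocked limma adjusted p-values of 0.0499 and 0.0497 and 0.163 and 0.159 without number 3. DESeq2 with the block called neither (adjusted p of 0.143 and 0.0984), and edgeR called GLUD1 (0.0434) and not GOT2 (0.0507). Without any 1 of the 4 pairs, limma called neither, with adjusted p-values of 0.0595 or more. IDH3A was not called by limma without pair 2 (0.0505). SDHC and GLUD1 have near-identical gene copies, and SDHC, IDH3A, GLUD1 and GOT2 overlap genes on the opposite strand, so these values are uncertain. The genes opposite SDHC and GOT2 measured 0.0 CPM on average. SHLD2 opposite GLUD1 measured 33.6 CPM, and CIB2 and ACSBG1 opposite IDH3A measured 13.6 and 1.19 CPM. The list median was −0.06.

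KDM3A, KDM4B and KDM4C are known targets of hypoxia-inducible factors. Of 23 other tested genes of the hypoxia response, 3 were called with the block, 2 higher and 1 lower (13.04%, against 11.4% of all genes), with a list median of 0.16. PFKFB3, an activator of glycolysis, was higher, from 9.65 ± 2.74 to 26.3 ± 4.73 CPM (SD, n = 4 each), with limma adjusted p = 0.00122 (blocked) and 0.1096 (unblocked). ARNT, the partner of HIF1A, had a log2 change of 0.67 and P4HA2, a collagen prolyl hydroxylase, one of −1.43, with blocked limma adjusted p-values of 0.0483 and 0.0273. ARNT was not called by limma without any 1 of the 4 pairs (adjusted p of 0.0612 or more, and 0.133 without number 3) or by DESeq2 (0.141), and P4HA2 was not called by limma without pair 1 (0.212) or pair 2 (0.205). P4HA2 overlaps a gene on the opposite strand, P4HA2-AS1, which measured 0.0 CPM on average. The other tested genes of this list were not called. In 3 of the 23 genes the groups did not overlap and siG9a was higher (3.88% of all genes tested). In 1 they did not overlap and siG9a was lower (520 of all 15092 genes).

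**Figure D4:**
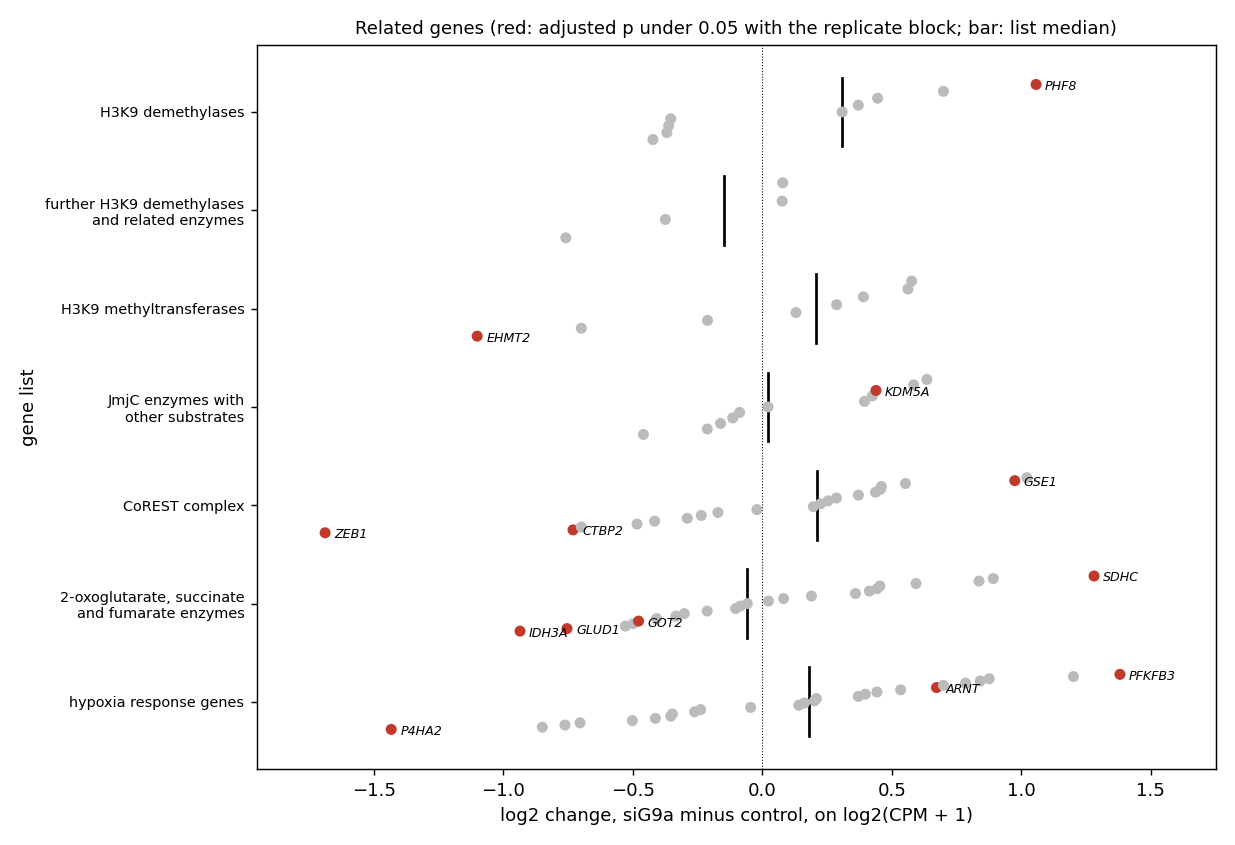
Log2 change (siG9a minus control, on log2(CPM + 1), horizontal axis) of every tested gene of the 9 demethylases and 6 lists of related genes. Red points have an adjusted p under 0.05 by limma with the replicate block, grey points do not, and black bars are list medians. The 9 demethylases lie on both sides of 0 with PHF8 farthest to the right, and KDM3A, KDM4B and KDM4C also appear in the hypoxia row.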

How the data were processed

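TRIzol-extracted RNA was made into QuantSeq 3′ mRNA libraries, per the labels' protocols. These are primed at the poly(A) tail, and sequenced single-end. The submitters' processing notes name FastQC 0.11.8, Trim Galore, STAR 2.5.0a, HTSeq 0.8.0 and edgeR 3.28, and both GRCh38 and hg19, without saying what each was used for, and the use of strand is not given in the sources used here. The authors deposited CPM for 60234 genes in 8 libraries, to 2 decimals. Whole reads were recovered from the CPM steps (100% of non-zero values whole within the rounding), with totals of 1458825 to 1938665 reads. Wilson intervals (95%) cover counting error only.

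The comparison of siG9a with control was tested two-sided on log2(CPM + 1) by limma 3.58.1 (R 4.3.3; eBayes with trend). Genes needed a mean CPM of 1 or more, with Benjamini-Hochberg adjustment over all genes and a threshold of 0.05. The pseudocount of 1 understates the change of low genes. Replicate numbers come from the sample titles, and the series text calls the replicates biological. Deviations from the group means correlated across genes by 0.50, 0.10, 0.67 and 0.13 within numbers 1 to 4, the second being 0.104. Control 2 correlated more with siG9a 4 (0.144), so numbers 2 and 4 do not stand out as pairs. Each number was above 0.1, but so was this unmatched pair, so the correlations do not settle whether every number pairs its libraries. The labels give no pairing beyond the numbers in the titles. Results with the number as a block therefore rest on an assumed pairing, and fits without it are given as well. The alternatives were other pseudocounts, filters and scalings, edgeR 4.0.16 (TMM, quasi-likelihood) and DESeq2 1.42.0 on recovered reads, and leaving out libraries or pairs. The scripts were tested on simulated reads drawn from the mean of each replicate number, with 200 genes changed. Limma recovered 27% of these genes without the block and 93.5% with it, where 6.5% of the calls were false. The simulation builds in the pairing by number, so it cannot show whether the numbers pair the real libraries. The members and lists were chosen with earlier results of these data known. Named genes were the 9 members, EHMT2, and in each list up to 4 genes called with or without the block, by smallest p with it, or, with none called, the 2 largest changes. RIOX1 and RIOX2 were matched by identifier. GENCODE 29 was used only for overlaps between genes and RefSeq for promoters. Protein sequences are not used here.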

Additional observations from a re-analysis of the deposited data

Results flagged for a closer look

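Dixon's ratio at its 95% critical value was used to look for a single library far from the other 3 of its group, for the 9 genes, their sum, their ratios and the related genes named above. It picked out 3 of 52 groups of 4 libraries, and about 2.6 are to be expected by chance. KDM4A was low in siG9a replicate 1 (48.5 CPM, against 64.8 to 67.7 CPM in the other siG9a libraries). KDM7A was high in control replicate 3 (6.76 CPM, against 3.63 to 4.11 CPM in the other controls). ZEB1 was low in control replicate 3 (92.9 CPM, against 232 to 248 CPM).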

How the results depend on the processing

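The number of genes called was 0 by limma without the block and 18 with no filter on low values, 1717 with the replicate block, 1711 by edgeR with it, and 291 and 969 by DESeq2 without and with it. Leaving out libraries moved it between 0 and 1393. It was 300 without control replicate 3, 2 without siG9a replicate 4, 413 without both libraries numbered 3 and 0 without any other single library. With the block it was 951, 668, 1078 and 1393 without pairs 1 to 4. In fits with the block chosen after seeing the data it was 1693 (median-ratio scaling), 1688 (quantile normalization), 1363 and 1710 (pseudocounts 0.1 and 5), 840 (no filter) and 1653 (a mean of at least 5 CPM). The number of the 9 genes called was 0 in each of 18 alternatives without the block, and in 13 with the block it was 1, PHF8, in 11 and 0 in 2 (without pair 3 or pair 4). Leaving out libraries moved it between 0 and 1. The 9 log2 changes kept their sign under all 31 alternatives. Their closest approach to 0 was −0.04 for KDM4B. PHF8 ran from 0.86 to 1.23, with adjusted p-values from 0.0540 to 0.413 without the block and from 0.00771 to 0.0970 with it. The scalings moved the median change of all genes by at most 0.01. Summing identifiers was not run, since each gene had 1. Where the counts differ between fits with the same libraries, the cause was not tested. Among the 9 genes KDM4C had the fewest reads, 5 to 13 per library.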
